A study of Mus musculus with 6 samples.

Results

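Matrix metalloproteases (MMPs), the ADAMTS proteases, the ADAMTS-like proteins (ADAMTSL) and the tissue inhibitors of metalloproteases (TIMPs) were followed across limb bud cultures that form skeletal tissue in a dish. Members were taken by gene symbol alone, which gave 48 of the 32286 features in the count tables: 20 MMPs, 19 ADAMTS proteases, 5 ADAMTSL proteins and 4 TIMPs. *Mmp9* and *Mmp13* were set aside by the rule. The cultures were started from distal forelimb mesenchyme that was dissected from CD-1 wildtype mouse embryos at E11.5, pooled, dissociated and plated on culture dishes. Separate cultures were taken for single-cell RNA sequencing at Day 2, Day 7 and Day 10, with replicates A and B at each day, so n = 2 per day and 6 libraries in all. All 6 shared the strain, the tissue, the stage and the serum-containing medium, and differed in days of culture.

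As background, MMPs are zinc proteases that are made as inactive proenzymes and cut collagens, gelatin and other matrix proteins once their propeptide is removed. ADAMTS proteases carry thrombospondin repeats that hold them in the matrix, where some cut proteoglycans such as aggrecan and versican and others trim procollagens, while ADAMTSL proteins share the repeats but lack the protease domain. TIMPs block the active site of MMPs, and TIMP3 also blocks several ADAMTS proteases. In the developing limb these enzymes take part in remodeling of the matrix around cartilage, joints and the tissue between the digits.

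The cells that passed the study's limits numbered 9448 to 16486 per library and held 178022112 to 260245417 UMIs (unique molecular identifiers, each standing for 1 captured transcript). The median cell held 18587 and 3871 UMIs in the replicates of Day 2, 8062 and 9337 in those of Day 7, and 24197 and 22128 in those of Day 10, so Day 2 replicate B stood apart by shallow cells. The median mitochondrial share rose with day, from 1.85% and 2.17% to 2.55% and 2.69% and then 3.96% and 3.60%. The study's upper limit for it also rose, from 25% at Day 2 to 30% at Day 7 and 40% at Day 10. Any 2 libraries shared 24 to 67 cell barcodes, at most 0.543% of the smaller library. Counts were summed over the cells of each library, and in such sums fewer cells of a type and less RNA per cell cannot be told apart. The 8 listed genes of distal and interdigital limb mesenchyme, *Hoxa13*, *Hoxd13* and *Lhx9* among them, had UMIs in every library, and their summed level went from 301 and 294 CPM (UMIs per 1000000 UMIs of the library) at Day 2 to 118 and 108 at Day 7 and 130 and 131 at Day 10. Over the same days 14 chondrocyte markers went from 2168 and 2346 CPM to 20364 and 18910 and then 12310 and 11321, and 8 immune markers from 26.0 and 12.3 to 32.2 and 44.8 and then 164 and 206. The sum of 8 osteoblast markers went from 37.7 and 42.4 CPM to 77.5 and 74.1 and then 701 and 939, and that of 6 osteoclast markers, *Ctsk* and *Acp5* giving most of it, from 10.1 and 9.20 to 26.6 and 30.2 and then 54.9 and 93.2. The sum of 9 perichondrium markers went from 1685 and 1794 CPM to 5337 and 4991 and then 9593 and 8669. Between Day 2 and Day 10 the sum of 10 myocyte markers fell from 648 and 508 to 24.3 and 35.2. That of 6 markers of dividing cells fell from 1330 and 1376 to 402 and 468. The part of these marker shifts in the changes of whole-culture levels was not tested.

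Taken as sums, the 4 families moved apart as the cultures aged. UMIs were counted at the 3′ end and not divided by transcript length, so levels are compared between days for 1 gene or family and not between genes. The share of the members' UMIs that belonged to TIMPs was 42.8% and 41.2% at Day 2, then 60.9% and 61.2% at Day 7, then 65.3% and 66.3% at Day 10, while the share of the ADAMTS proteases was 29.1% and 30.7%, then 12.5% and 13.0%, then 8.64% in both replicates. As CPM of the library, TIMPs summed to 350.2 ± 17.6 (SD, n = 2) at Day 2, 800.3 ± 19.9 at Day 7 and 1208 ± 38.4 at Day 10. ADAMTSL proteins summed to 29.6 ± 1.14, 60.5 ± 1.94 and 79.9 ± 0.512, and MMPs to 205 ± 6.53, 283 ± 15.0 and 389 ± 4.15. ADAMTS proteases were the family whose sum was lower at both later days, at 249 ± 4.17, 167 ± 0.166 and 159 ± 3.24. Such sums weigh members by their UMIs. *Adamts1* had the most of any ADAMTS protease in every library, and *Timp1* the most of any TIMP at Day 10. With each cell thinned to 1000 UMIs, so that large cells weighed no more than small ones, the ADAMTS sums lay closer together, at 252 ± 19.6, 213 ± 10.4 and 225 ± 6.09.

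**Figure D1:**
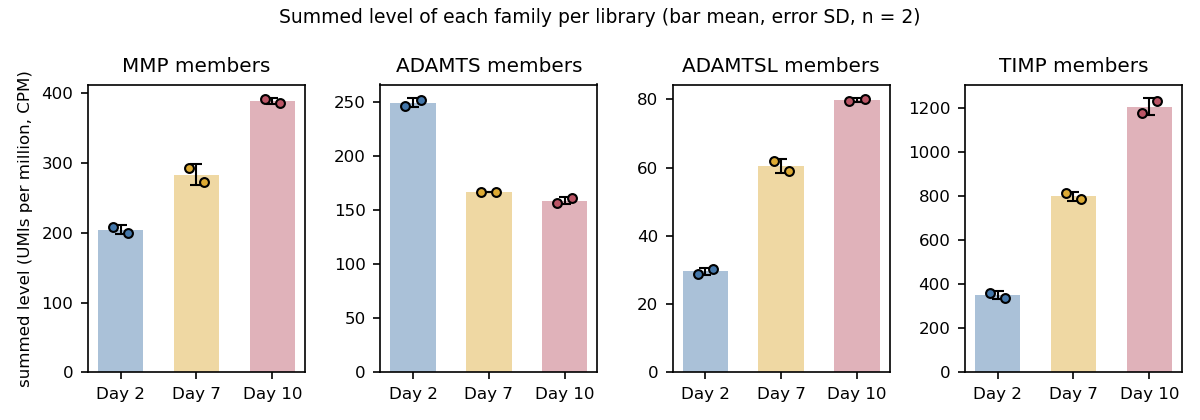
Summed level of the MMP, ADAMTS, ADAMTSL and TIMP members in CPM of each library (y axis, starting at 0) by day of culture (x axis), with points for replicates A and B, bars for their mean and error bars for the SD (n = 2). The TIMP sum rose from 363 and 338 at Day 2 to 1181 and 1235 at Day 10, while the ADAMTS sum went from 246 and 252 to 156 and 161.

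Of the 48 members, 40 had enough UMIs to be tested. Between Day 2 and Day 7, 37 of the 40 differed at an adjusted p under 0.05 (edgeR quasi-likelihood test, Benjamini-Hochberg over 18987 genes), against 70.3% of all genes tested. Of these, 22 rose and 15 fell, against 35.7% and 34.6% of all genes. By family, 4 of 4 TIMPs and 4 of 5 ADAMTSL proteins rose, 8 of 13 MMPs rose and 3 fell, and 11 of 18 ADAMTS proteases fell and 6 rose. The median log2 fold change was 0.47 over the 40 members and 0.01 over all genes. Changes of at least 2-fold numbered 16 upward and 8 downward, against 15.0% and 12.6% of all genes.

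From Day 7 to Day 10, 30 of the 40 members differed in the same edgeR test, against 52.2% of all genes, with 20 higher and 10 lower, against 26.3% and 25.9%. By at least 2-fold, 5 rose and 3 fell, against 3.68% and 7.44% of all genes. MMPs rose in 8 cases and fell in 1, ADAMTSL proteins rose in 4 of 5, TIMPs rose in 3 of 4, and ADAMTS proteases rose in 5 cases and fell in 9. Over the whole period, Day 10 against Day 2, 35 of 40 members differed, against 77.3% of all genes, with 22 higher and 13 lower, against 39.0% and 38.2%. Of the 35, 18 rose and 7 fell by at least 2-fold, against 17.5% and 17.7% of all genes. The Day 7 libraries serve in both steps and the Day 2 libraries in 2 of the 3 comparisons, so the comparisons are not independent of each other. With cells thinned to 1000 UMIs the count for Day 10 against Day 7 fell to 16 of the 35 members that could then be tested, 11 higher and 5 lower. The share of all genes called after thinning is not given here, so that count cannot set the members apart from other genes.

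**Figure D2:**
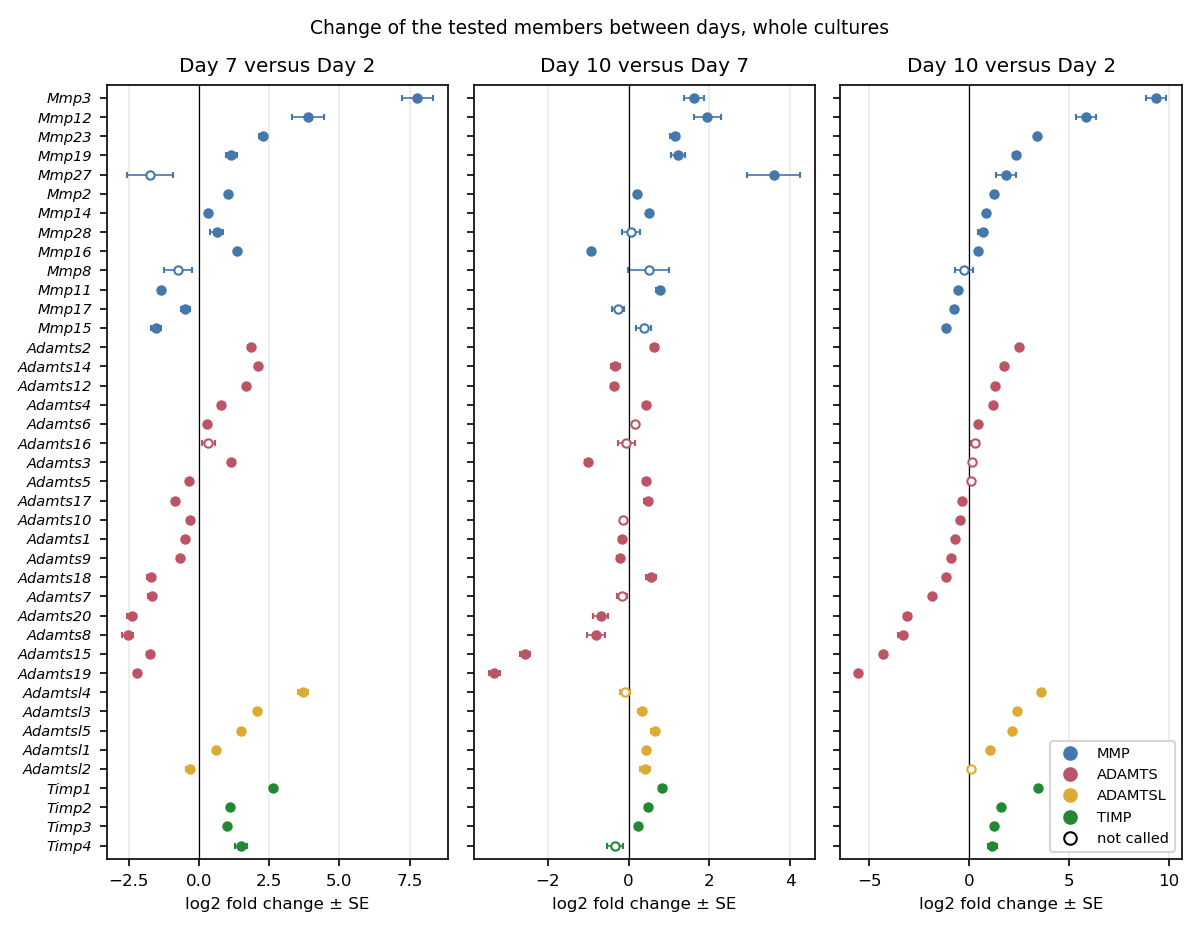
log2 fold change ± SE (x axis) of the 40 tested members in whole cultures for the 3 comparisons of days, by family and ordered by the change from Day 2 to Day 10, with filled points for members called by edgeR and open points for the others. All 4 TIMPs lie to the right of 0 in Day 7 versus Day 2, the ADAMTS proteases lie on both sides, and the fitted values of Mmp3, with 4 UMIs at Day 2, depend on the prior count of the fit.

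All 4 inhibitors rose between Day 2 and Day 7, against 35.7% of all genes, and 3 of the 4 rose again by Day 10, against 26.3%. *Timp1*, a secreted inhibitor of most MMPs whose gene lies at chrX:20870166-20874735 (GRCm38, + strand), stood at 56.3 and 46.5 CPM (for single genes after TMM scaling, replicate A and then B) at Day 2, then 317 and 319.7 at Day 7, then 551 and 582 at Day 10. No library of an earlier day reached the level of a later one. *Timp1* rose by 2.63 ± 0.092 (log2 ± SE, 6.19-fold) from Day 2 to Day 7 and by 0.83 ± 0.087 from Day 7 to Day 10, with edgeR adjusted p = 4.61e-08 and 0.000138. *Timp2*, which blocks MMPs and also takes part in the activation of proMMP2 by MMP14, was at 161 and 144 CPM, then 331 and 330.2, then 463 and 461. It rose by 1.12 ± 0.066 and then by 0.48 ± 0.066 on the log2 scale (edgeR adjusted p = 9.43e-07 and 0.000496), again with no overlap between days. *Timp3*, the inhibitor that binds to the matrix, was measured at 105 CPM in both replicates of Day 2, then 221 and 197 at Day 7, then 240.5 and 253 at Day 10. Its first step was of 0.99 ± 0.066 and its second of 0.24 ± 0.065 (edgeR adjusted p = 1.8e-06 and 0.0141), and the second was no longer called without Day 7 replicate B (0.16, adjusted p = 0.156) or without Day 10 replicate B (0.21, adjusted p = 0.0871). *Timp4* stayed at or under 1.01 CPM in every library, rose from Day 2 to Day 7 by 1.496 ± 0.21 (edgeR adjusted p = 0.000233) and did not pass the test from Day 7 to Day 10. All 4 TIMP genes overlap another gene: *Timp1*, *Timp3* and *Timp4* lie within *Syn1*, *Syn3* and *Syn2* on the opposite strand, and *Timp2* overlaps *Cep295nl* on its own strand.

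The promoters of *Timp1* and *Timp3* are shown because these genes rose at each step both in whole cultures and within chondrocyte-like cells (given further on). They are RefSeq sequences of GRCm38.p6, running from 250 bases before the start site to 50 bases from it on, 5′ to 3′, with capitals for matches to GGGCGG or its complement CCGCCC, the core of the GC box. The *Timp1* window is chrX:20869916-20870215 and the *Timp3* window chr10:86300162-86300461, both on the + strand.
Timp1: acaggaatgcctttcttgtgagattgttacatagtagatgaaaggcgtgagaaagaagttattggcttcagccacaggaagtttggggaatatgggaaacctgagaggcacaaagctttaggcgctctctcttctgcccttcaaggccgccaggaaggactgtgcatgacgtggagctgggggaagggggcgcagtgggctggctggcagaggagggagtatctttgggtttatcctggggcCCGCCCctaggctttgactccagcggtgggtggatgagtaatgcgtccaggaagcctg
Timp3: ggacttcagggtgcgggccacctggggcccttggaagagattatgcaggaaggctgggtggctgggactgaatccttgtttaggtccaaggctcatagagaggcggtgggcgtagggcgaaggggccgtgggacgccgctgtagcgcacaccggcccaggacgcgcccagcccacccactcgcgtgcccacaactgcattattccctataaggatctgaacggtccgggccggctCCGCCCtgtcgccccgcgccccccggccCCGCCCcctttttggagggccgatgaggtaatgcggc
The GC box core was found in at least 1 window of 22 of the 34 members with a promoter entry, *Timp1*, *Timp2* and *Timp3* included, and in 35.6% of all 32817 promoters on either strand. The first count is per member and the second per window. The median GC content was 62.3% over the 37 member promoters and 52.7% over all promoters.

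Among the MMPs with an established role in collagen and gelatin breakdown, *Mmp2*, a gelatinase, was at 53.6 and 52.4 CPM at Day 2, then 112 and 104 at Day 7, then 131 and 119.9 at Day 10. *Mmp14*, the membrane-type protease that activates proMMP2, was at 80.7 and 75.7, then 100.3 and 94.6, then 142 and 135. The days did not overlap for either gene, but *Mmp2* replicates of neighboring days came close between Day 7 and Day 10. *Mmp2* rose by 1.03 ± 0.062 in the first step and 0.22 ± 0.062 in the second (edgeR adjusted p = 1.07e-06 and 0.018), the second not being called without Day 7 replicate B (0.16, adjusted p = 0.156), without Day 10 replicate A (0.15, adjusted p = 0.141) or after thinning (0.12, adjusted p = 0.539). *Mmp14* rose by 0.32 ± 0.057 and then by 0.51 ± 0.057 (edgeR adjusted p = 0.001 and 0.000197). The first *Mmp14* step was not called when libraries were scaled by their totals alone (0.04, adjusted p = 0.574), a scaling that moved the median of all genes by -0.28.

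*Mmp23* and *Mmp16* followed different courses. *Mmp23*, an MMP with an unusual C-terminal domain in place of hemopexin, was at 10.8 and 8.02 CPM at Day 2, then 46.1 and 44.3 at Day 7, then 97.4 and 102 at Day 10. It rose by 2.26 ± 0.12 and then by 1.14 ± 0.11 (edgeR adjusted p = 3.89e-07 and 9.35e-05), a total of 10.6-fold with all libraries of a later day above all of an earlier one. *Mmp16*, a membrane-type MMP, was at 14.5 and 15.6 CPM, then 39.97 and 37.6, then 20.3 and 20.7. It rose by 1.36 ± 0.058 to Day 7 and fell by 0.92 to Day 10 (SE 0.057, edgeR adjusted p = 1.44e-07 and 1.56e-05), so that Day 7 was the highest day. *Mmp11*, stromelysin 3, went the other way. Its levels were 21.99 and 18.5 CPM at Day 2, then 8.03 and 7.92 at Day 7, then 14.1 and 13.1 at Day 10. It fell by 1.34 (SE 0.084) and then rose by 0.77 ± 0.084 (edgeR adjusted p = 1.29e-06 and 0.000171), with Day 7 the lowest day. *Mmp11* overlaps *Chchd10* on the opposite strand.

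*Mmp3* and *Mmp12* were close to absent at Day 2 and present later. *Mmp3*, stromelysin 1, which cuts proteoglycans and activates other proMMPs, had 4 and 0 UMIs in the Day 2 replicates, then 493 and 324 at Day 7, then 1254 and 1762 at Day 10. In CPM these were 0.0173 and 0, then 2.52 and 1.74, then 5.12 and 7.93. No days overlapped, and *Mmp3* was called at each step (edgeR adjusted p = 2.79e-06 and 0.000905). No fold is given for the first step because it rests on 4 UMIs, and the second was of 1.61 ± 0.25 on the log2 scale, or 0.87 after thinning (adjusted p = 0.0479). *Mmp12*, the macrophage elastase, had 5 and 2 UMIs at Day 2, then 64 and 30 at Day 7, then 185 and 256 at Day 10, and was called at each step (edgeR adjusted p = 0.000296 and 0.00172). Its levels reached 0.756 and 1.15 CPM at Day 10. *Mmp19*, a secreted MMP outside the main subgroups, was at 0.511 and 0.841 CPM, then 1.48 and 1.496, then 3.47 in both replicates, and rose by 1.15 ± 0.20 and 1.22 ± 0.18 (edgeR adjusted p = 0.000759 and 0.000767). The immune marker sum rose over the same days, by the values above. Its part in the change of *Mmp12*, *Mmp19* and *Mmp27* was not tested in whole cultures, but the cells that held *Mmp12* are given below.

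Both *Mmp3* and *Mmp12* belong to a run of 8 members at chr9:7344381-7699585, a stretch of 355205 bases that also holds *Mmp1b*, *Mmp10*, *Mmp8*, *Mmp27*, *Mmp20* and *Mmp7* (GRCm38, GENCODE annotation). Only members were placed, so *Mmp13*, set aside by the rule, and other genes outside the members were not looked for in or beside this run. The other 6 members of the run stayed at 29 UMIs or fewer in every library, and *Mmp7* and *Mmp20* had 0 in all 6. *Mmp27* was called higher at Day 10 than at Day 7 (edgeR adjusted p = 0.00205) on 18 and 29 UMIs against 1 and 2, most of which lay at Day 10 in immune-like cells (given further on). The promoters of *Mmp3* and *Mmp12* are printed from RefSeq (GRCm38.p6), with capitals for TGANTCA, the binding motif of AP-1 factors, and for TATAAA. The *Mmp3* window is chr9:7445572-7445871 and the *Mmp12* window, for the second of its 2 listed start sites, chr9:7347124-7347423, both on the + strand.
Mmp3: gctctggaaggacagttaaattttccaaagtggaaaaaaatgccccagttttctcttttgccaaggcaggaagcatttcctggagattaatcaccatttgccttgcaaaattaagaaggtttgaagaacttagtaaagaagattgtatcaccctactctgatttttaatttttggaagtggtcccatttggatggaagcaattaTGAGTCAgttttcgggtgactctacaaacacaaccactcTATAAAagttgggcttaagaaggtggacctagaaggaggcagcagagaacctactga
Mmp12: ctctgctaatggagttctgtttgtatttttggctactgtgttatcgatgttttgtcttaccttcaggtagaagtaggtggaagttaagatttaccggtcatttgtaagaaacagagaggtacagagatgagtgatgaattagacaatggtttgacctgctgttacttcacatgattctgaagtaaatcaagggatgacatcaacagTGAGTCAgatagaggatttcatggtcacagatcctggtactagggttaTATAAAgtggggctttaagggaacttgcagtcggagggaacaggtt
Each printed window held the form TGAGTCA, at -46 to -40 from the start site in *Mmp3* and at -44 to -38 in *Mmp12*. A TATAAA lay downstream of it, at -7 to -2 in *Mmp3* and, past the listed start site, at 4 to 9 in *Mmp12*. The window of the first listed *Mmp12* start site, chr9:7344147-7344446, held neither motif. TGANTCA, which reads the same on both strands, was found in 6 of the 34 members with a promoter entry and in 7.81% of all promoters. For each motif a member counted if any of its listed windows held it, while the share of all promoters is per window. The 6 were *Mmp3*, *Mmp12*, *Mmp1b*, *Mmp10*, *Mmp20* and *Mmp7*, all of the run on chromosome 9. TATAAA was found on either strand in 10 of 34 members and 13.6% of all promoters, and TGTGGT, the core bound by RUNX factors, in 5 of 34 and 16.8%. These matches describe letters in the windows, and members with and without UMIs shared them.

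**Figure D3:**
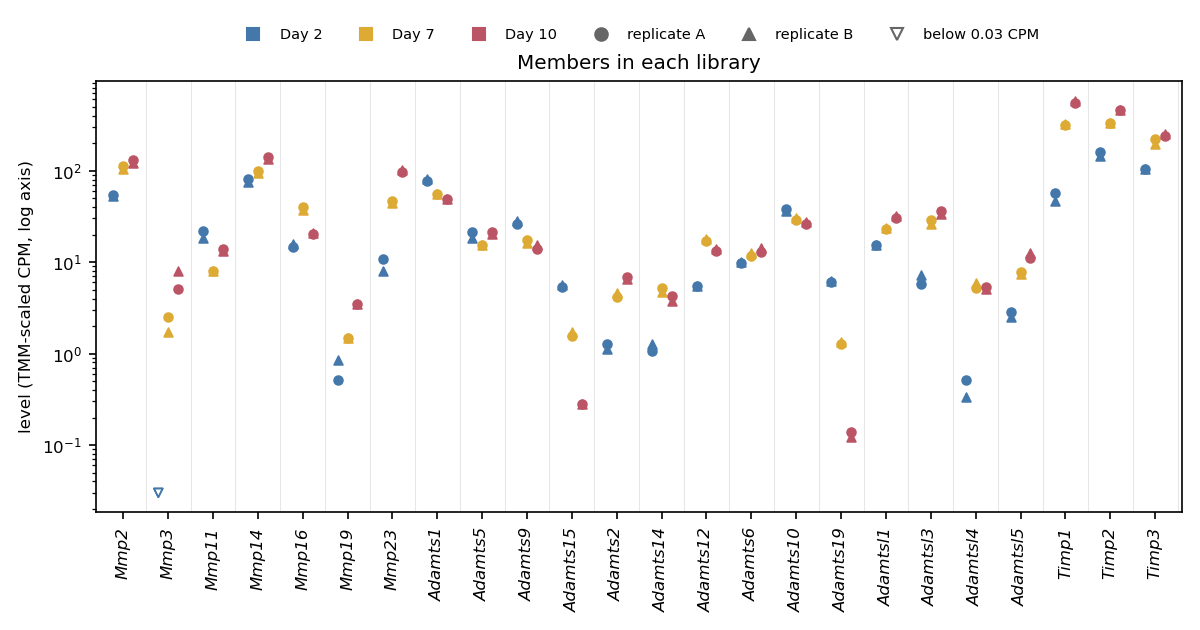
Level of 24 members in each library on a log axis (y axis, TMM-scaled CPM), with color for the day, circles for replicate A, triangles for replicate B and an open triangle for values under 0.03 CPM. Timp1, Timp2, Timp3, Mmp23 and Adamtsl1 step upward with day, Adamts15 and Adamts19 step downward, and Mmp16 peaks at Day 7.

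Of the 7 proteoglycanases, 6 fell and 1 rose between Day 2 and Day 7, against 34.6% and 35.7% of all genes. *Adamts1*, an aggrecan- and versican-cutting protease, was at 76.5 and 81.8 CPM at Day 2, then 55.0 and 55.7 at Day 7, then 49.1 and 49.0 at Day 10. It fell by 0.52 (SE 0.051) and then by 0.18 (SE 0.051) on the log2 scale (edgeR adjusted p = 2.11e-05 and 0.0185), and leaving out any 1 of the 4 libraries of Day 7 and Day 10 kept the size of the second step (-0.16 to -0.18) but ended its call (adjusted p from 0.0845 to 0.12). *Adamts5*, the main aggrecanase of mouse cartilage, was at 21.2 and 18.5 CPM, then 15.4 and 15.5, then 21.5 and 20.2, a fall of 0.36 (SE 0.071) followed by a rise of 0.43 ± 0.070 (edgeR adjusted p = 0.00156 and 0.00125). Its Day 10 and Day 2 levels overlapped. *Adamts9*, a versican-cutting protease, was at 25.8 and 28.0, then 17.7 and 16.1, then 13.8 and 15.4 CPM, and fell by 0.67 (SE 0.074) in the first step (edgeR adjusted p = 4.33e-05). Its second step, a fall of 0.21 (SE 0.074, edgeR adjusted p = 0.0395), was not called without Day 7 replicate A (-0.15, adjusted p = 0.245), without Day 10 replicate A (-0.14, adjusted p = 0.238), with scaling by library totals (adjusted p = 0.0748) or with the replicate block (adjusted p = 0.0515). With cells thinned to 1000 UMIs the first step was not called for *Adamts5* (-0.12, adjusted p = 0.486) or *Adamts9* (-0.08, adjusted p = 0.596), and neither was the second for *Adamts1* (-0.10, adjusted p = 0.47), *Adamts5* (0.26, adjusted p = 0.187) or *Adamts9* (-0.02, adjusted p = 0.917).

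*Adamts15*, a proteoglycanase, fell at each step and was one of the members with the steepest decline. It was at 5.32 and 5.66 CPM at Day 2, then 1.57 and 1.72 at Day 7, then 0.278 and 0.279 at Day 10. It fell by 1.74 (SE 0.097) and then by 2.56 (SE 0.12), with edgeR adjusted p = 6.48e-07 and 5.01e-06, and the days did not overlap. After thinning its second step was -1.75 and the change from Day 2 to Day 10 was -3.07, against -4.30 without thinning (edgeR adjusted p = 0.00482, 1.39e-06 and 8.11e-09). *Adamts19*, whose substrates are not well known, went from 6.13 and 6.15 CPM to 1.28 and 1.35 and then to 0.139 and 0.122. It fell by 2.22 (SE 0.095) and by 3.33 (SE 0.13), with edgeR adjusted p = 1.42e-07 and 2.52e-06, which left 34 and 27 UMIs at Day 10 of 1417 and 1252 at Day 2. After thinning the steps of *Adamts19* were -2.90 and -2.56 (edgeR adjusted p = 8.83e-07 and 0.0106). *Adamts8* and *Adamts20*, proteoglycanases at 2.20 CPM or less, also fell by more than 2 on the log2 scale to Day 7, by 2.53 (SE 0.20) and 2.39 (SE 0.15). *Adamts8* and *Adamts15* are neighbors at chr9:30899155-30963838 on opposite strands. *Adamts4*, another aggrecanase, was the proteoglycanase that rose, from 2.34 and 2.24 CPM to 3.89 and 3.96 and then 5.47 and 5.18 (edgeR adjusted p = 2.85e-05 and 0.00172).

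All 3 procollagen N-proteinases rose between Day 2 and Day 7, against 35.7% of all genes. These enzymes remove the N-terminal propeptide of fibrillar procollagens. *Adamts2* was at 1.28 and 1.13 CPM, then 4.11 and 4.58, then 6.89 and 6.62, a rise of 1.85 ± 0.098 and then 0.64 ± 0.088 (edgeR adjusted p = 4.66e-07 and 0.000543). *Adamts14* was at 1.07 and 1.26, then 5.26 and 4.71, then 4.21 and 3.74, a rise of 2.10 ± 0.12 followed by a fall of 0.33 (SE 0.11, edgeR adjusted p = 6.15e-07 and 0.0301), which was not called without Day 7 replicate A (-0.24, adjusted p = 0.187) or Day 10 replicate B (-0.24, adjusted p = 0.177). After thinning, the second step was not called for *Adamts2* (0.64, adjusted p = 0.0656) or *Adamts14* (-0.34, adjusted p = 0.317). *Adamts3*, which acts on type II procollagen and on VEGFC, was at 3.76 and 3.88, then 8.86 and 7.87, then 4.18 in both replicates of Day 10. It rose by 1.13 ± 0.078 and fell by 1.0004 (SE 0.077), so Day 10 ended within 0.13 ± 0.078 of Day 2 (edgeR adjusted p = 0.158). After Day 7, 1 of the 3 enzymes rose and 2 fell, against 26.3% and 25.9% of all genes.

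The remaining ADAMTS proteases went both ways. *Adamts12*, one of the pair that cuts the cartilage protein COMP, was at 5.46 and 5.54 CPM, then 17.2 and 18.03, then 13.2 and 14.0, and rose by 1.68 ± 0.059 and fell by 0.37 (SE 0.056, edgeR adjusted p = 4.9e-08 and 0.000842). *Adamts7*, the other COMP-cutting enzyme, fell from 5.96 and 5.18 CPM to 1.79 and 1.68 (1.68 lower on the log2 scale, SE 0.12, edgeR adjusted p = 2.45e-06) and did not pass the test after Day 7. It overlaps *Tbc1d2b* on the opposite strand. *Adamts10*, which binds fibrillin, was at 38.1 and 36.7, then 28.9 and 30.3, then 25.9 and 27.6 CPM, and fell by 0.34 (SE 0.055) in the first step (edgeR adjusted p = 0.000541), a step not called after thinning (-0.02, adjusted p = 0.895). *Adamts6*, its closest relative, was at 9.81 and 10.0, then 11.6 and 12.6, then 12.9 and 14.1 CPM, and rose by 0.29 ± 0.066 in the first step (edgeR adjusted p = 0.0041), which was not called with scaling by library totals (0.00, adjusted p = 0.961). *Adamts17* and *Adamts18* fell to Day 7, by 0.84 (SE 0.097) and 1.72 (SE 0.12), and rose again to Day 10, by 0.47 ± 0.097 and 0.56 ± 0.13, with all 4 called. *Adamts16* stayed at or under 0.301 CPM and was not called in any comparison.

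Of the ADAMTSL proteins, which lack a catalytic domain and several of which bind to microfibrils, 4 of 5 rose by Day 7, against 35.7% of all genes. *Adamtsl3* was at 5.81 and 7.31 CPM, then 28.9 and 26.1, then 36.1 and 33.5, and rose by 2.07 ± 0.10 in the first step and 0.34 ± 0.098 in the second (edgeR adjusted p = 3.63e-07 and 0.0183). After thinning the first step was 2.66 (adjusted p = 1.81e-09). The second step was not called without Day 7 replicate B (0.27, adjusted p = 0.108), without Day 10 replicate A (0.29, adjusted p = 0.102), with every deposited barcode (0.32, adjusted p = 0.0628) or with cells thinned to 1000 UMIs (0.05, adjusted p = 0.784). *Adamtsl4*, a fibrillin-binding protein, was at 0.511 and 0.334, then 5.19 and 5.93, then 5.36 and 5.08 CPM. Its rise of 3.70 ± 0.16 (13.0-fold, edgeR adjusted p = 1.7e-07) lay between Day 2 and Day 7, and the later days overlapped. *Adamtsl1* was at 15.2 and 15.3, then 23.2 and 23.5, then 30.6 and 31.8 CPM, and rose by 0.61 ± 0.048 and 0.42 ± 0.048 (edgeR adjusted p = 5.32e-06 and 0.000203). *Adamtsl5* was at 2.82 and 2.50, then 7.74 and 7.38, then 11.1 and 12.6 CPM, and rose by 1.51 ± 0.090 and 0.65 ± 0.084 (edgeR adjusted p = 9.83e-07 and 0.000382), the second not being called after thinning (0.45, adjusted p = 0.136). *Adamtsl2* was the exception: it was lower at Day 7 by 0.34 (SE 0.13, edgeR adjusted p = 0.0392) and back at the Day 2 level by Day 10 (0.07 ± 0.12, adjusted p = 0.614). *Adamtsl1* overlaps *Sh3gl2* on the same strand.

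The remaining MMPs had few UMIs. *Mmp15* and *Mmp17*, both membrane-type, were at 1.84 CPM or less in every library and fell by 1.53 (SE 0.17) and 0.49 (SE 0.15) to Day 7 (edgeR adjusted p = 5.2e-05 and 0.0195). *Mmp28*, epilysin, was at 0.584 CPM or less and rose by 0.63 ± 0.23 (edgeR adjusted p = 0.0357). *Mmp8*, the neutrophil collagenase, had 5 to 19 UMIs per library and was not called in any comparison. *Adamts13*, *Mmp1b*, *Mmp7*, *Mmp10*, *Mmp20*, *Mmp21*, *Mmp24* and *Mmp25* did not have enough UMIs for a test, and 10 members in all had fewer than 100 UMIs over the 6 libraries.

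Per cell, few members were seen at a time. The median cell had UMIs of 7 and 3 members at Day 2, then 5 and 5 at Day 7, then 9 and 8 at Day 10, an order that went with the depth of the cells. After thinning each cell to 1000 UMIs the median was 1 member in every library, and cells with none made up 47.3% and 49.2% at Day 2, then 31.6% and 34.8% at Day 7, then 21.0% and 22.3% at Day 10. Without thinning, cells with no member UMI made up 3.51% and 14.2%, then 6.76% and 6.96%, then 0.905% and 1.25%, with the largest share in the shallow Day 2 replicate B.

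To see which cells held the members, cells of each day were clustered from both replicates without the members as features, and clusters were called X-like from marker genes. The levels by cluster are a description, with no test. Day 2 had 13 clusters, Day 7 had 16 and Day 10 had 17, of which 8, 10 and 11 had at least 50 cells in each library and a median depth of at least 1/3 of the library's. Clusters without a name held 5.65% and 48.1% of the cells at Day 2, then 33.3% and 25.5% at Day 7, then 34.1% and 36.1% at Day 10. In what follows, highest means highest among the 8, 10 and 11 clusters that met these limits. Of 24 members with values in every library above, 16, 16 and 19 had the same highest cluster in both replicates at Day 2, Day 7 and Day 10.

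At Day 2 and Day 7, *Timp1*, *Timp2* and *Mmp23* were highest in contractile-like cells, which carry *Cnn1*, *Tagln* and *Acta2*. At Day 2 none of the contractile markers was among the 10 leading genes of that cluster, which included the keratins *Krt8* and *Krt18*. In the contractile-like cluster of Day 2, *Timp1* reached 161 and 159.8 CPM, taken over the UMIs of the cluster, against 63.3 and 53.2 over the libraries, and in that of Day 7 it was at 626 and 646 against 297 and 296. At Day 10 the contractile-like cluster held 1094 and 1138, and an unnamed cluster led by *Crabp1*, *Wnt10a* and *Cd34* held 1230 and 1047, so their order differed between the replicates. *Mmp23* was highest in the contractile-like cluster at all 3 days, at 25.6 and 19.9, then 110 and 109, then 159.8 and 172 CPM. In the largest chondrocyte-like cluster of Day 10 it was at 13.4 and 18.2. The 10 leading genes of the Day 7 contractile-like cluster began with *Prg4*, a listed articular marker. They also held *Timp1*, *Mmp23* and the contractile markers *Actg2* and *Tagln*, so its name covers only part of what these cells carry.

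*Adamts1* and *Adamts5* were highest in the joint interzone-like cells of Day 2 and Day 7, which carry *Gdf5* and *Osr2*. *Adamts1* was at 162 and 177 CPM in that cluster at Day 2 and at 154 and 155 at Day 7, against 86.1 and 93.5 and then 51.6 in both over the libraries. *Adamts5* was at 63.8 and 56.9 and then at 45.2 and 41.2, and its lowest values lay in chondrocyte-like cells, at 8.22 and 6.22 and then 3.12 and 2.92. The joint interzone-like cluster of Day 2 was also highest for *Adamts19* (24.4 and 25.9), and that of Day 7 for *Adamtsl4* (21.98 and 24.4) and *Mmp3* (12.9 and 10.5). None of the listed joint interzone markers was among the 10 leading genes of the Day 7 cluster, which began with *Gas1* and *Osr1*. The summed level of 6 joint interzone markers fell from 685 and 628 CPM in whole cultures at Day 2 to 111 and 125 at Day 10, and its part in the fall of *Adamts1* and *Adamts19* was not tested.

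*Timp3*, *Mmp2* and *Mmp16* were highest in chondrocyte-like cells at Day 7 and Day 10, though in a shallower cluster of that name. *Timp3* was at 605 and 488 CPM in the cluster led by *Col11a2*, *Acan* and *Comp* at Day 7 and at 1061 and 978 in the cluster led by *Col9a3* and *Comp* at Day 10, against 207 and 183 and then 226 and 241 over the libraries. *Mmp16* was at 142 and 123 and then 78.9 and 83.4 in the same clusters. *Mmp2* was at 261 and 226 and then 292 and 259. In the larger chondrocyte-like cluster the levels were far lower. There *Timp3* was at 210.2 and 187 at Day 7 and 278 and 316 at Day 10, and *Mmp16* was at 47.6 and 46.0 and then 26.0 and 26.6. *Mmp2* in the larger cluster, at 86.0 and 82.6 and then 87.9 and 85.6, was below its level over the libraries of 105 and 96.4 and then 123 and 114. At Day 10 the shallower cluster was also highest for *Adamts14* (21.2 and 13.3) and *Adamts9* (54.8 and 44.6). The median cell of the shallower Day 10 cluster held 8297 and 8102 UMIs, against 36458 and 33379 in the larger chondrocyte-like cluster.

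Other members marked other cells. At Day 10, osteoblast-like cells, which carry *Ibsp* and *Sp7*, were highest for *Adamts2* (14.7 and 13.0 CPM), *Adamts18* (12.6 and 13.7) and *Adamtsl1* (64.6 and 67.7). Cells that carry *Hoxa13* and *Msx1* with *Wfdc1* and *Prg4* as leading genes were highest for *Adamts1* (70.4 and 76.3) and *Adamtsl3* (59.0 and 60.2). *Mmp3* was spread at Day 10 over these cells (12.8 and 26.5), contractile-like cells (10.0 and 12.9) and the *Crabp1*-led cluster (22.9 and 14.3), and had 0 UMIs in immune-like cells. Of the *Mmp12* UMIs, 180 of 185 in replicate A and 246 of 256 in replicate B lay in the immune-like cluster of Day 10, which carries *C1qa*, *Csf1r* and *Tyrobp*. There, 24.6% of 118 cells and 22.6% of 164 cells had a *Mmp12* UMI at median depths of 21232 and 21872 UMIs, against 0.189% and 0.317% in the *Wfdc1*-led cells at 28633 and 26795. The same cluster held 14 of 18 and 23 of 29 UMIs of *Mmp27* and 10 of 13 and 13 of 13 UMIs of *Mmp8*. At Day 2, in contrast, 17 of 19 and 7 of 10 UMIs of *Mmp8* lay in a myocyte-like cluster. *Mmp19* was also highest in the immune-like cells of Day 10, at 6.18 and 8.29 CPM on 18 and 33 UMIs, but the *Wfdc1*-led cells held 5.79 and 5.50.

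**Figure D4:**
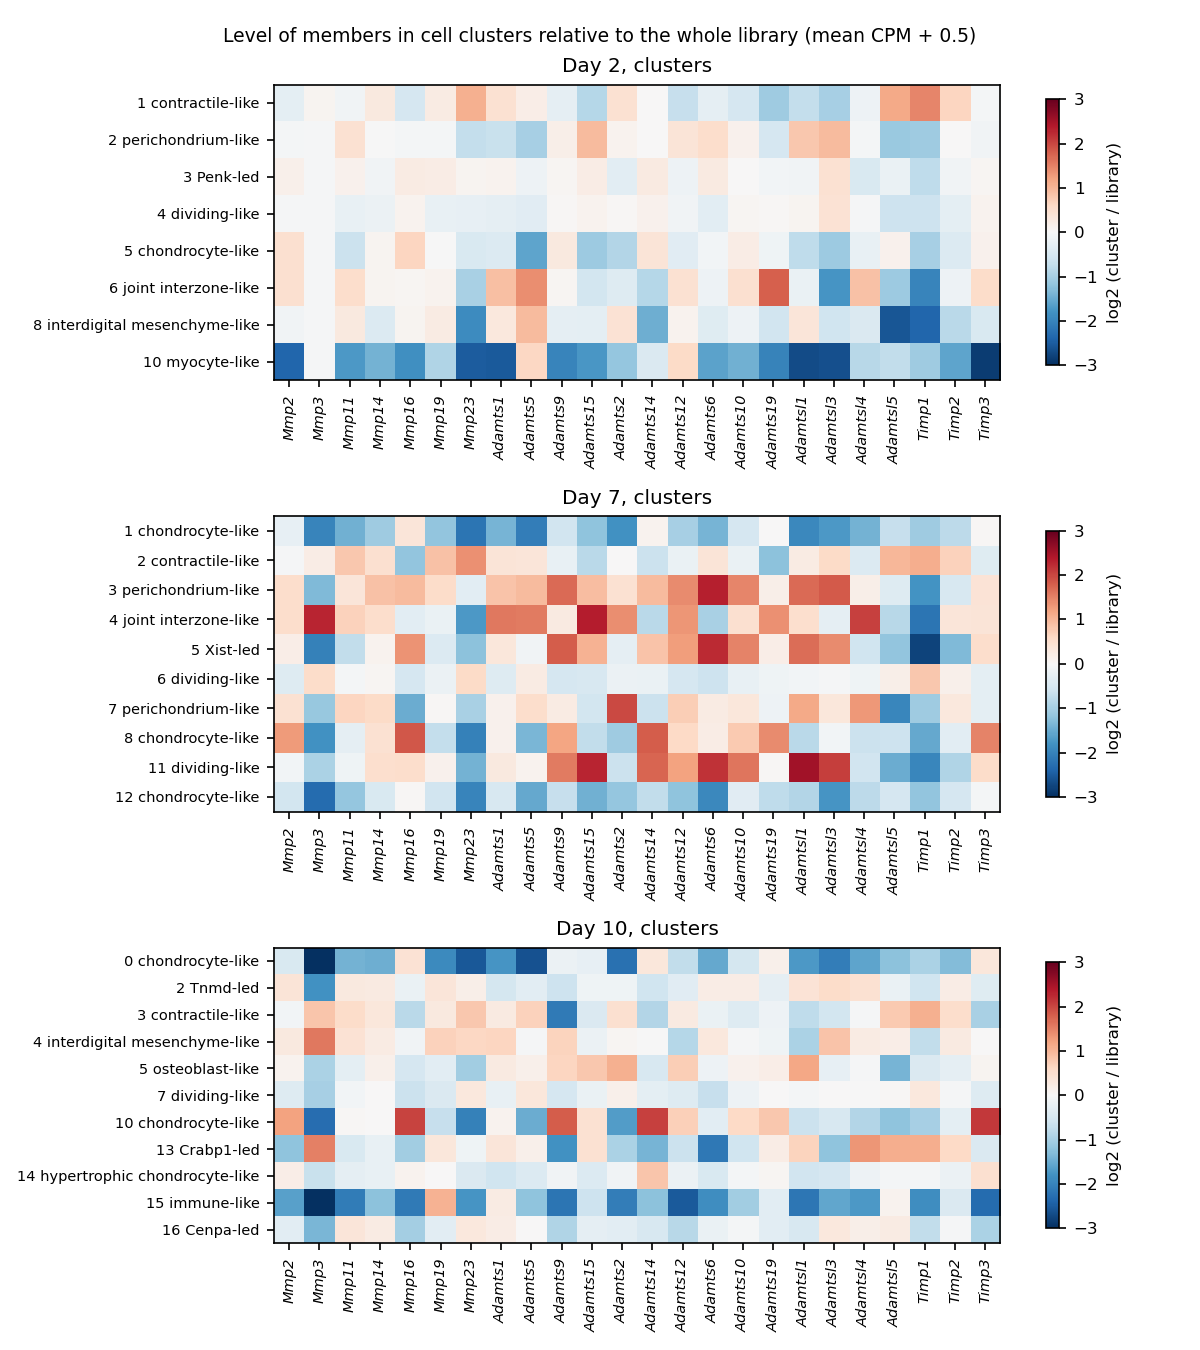
Heat maps for Day 2, Day 7 and Day 10 of the log2 ratio of a member's mean level in a cluster to its level in the whole library, each with 0.5 CPM added (red higher, blue lower), for 24 members (columns) and the compared clusters (rows). Timp1 and Mmp23 are red in contractile-like rows, Adamts5 is red in joint interzone-like rows, and Timp3 and Mmp16 are red in the shallower chondrocyte-like row at Day 7 and Day 10.

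Clusters that were shallow for their library were kept out of this account, and they change it when counted. The limit was relative to each library, so clusters of like depth were not treated alike. A Day 7 cluster with 4992 and 4542 UMIs in the median cell was compared, and a Day 10 cluster with 5195 and 4111 was not. With clusters of any depth and at least 50 cells per library, 15 of the 24 members at Day 2, 2 at Day 7 and 11 at Day 10 were highest in a shallow cluster. At Day 2 all 15 lay in a perichondrium-like cluster whose leading genes were mitochondrial transcripts, whose median cell held 2834 and 3236 UMIs. Of the highest clusters named above, those of *Adamts1* at Day 2 and *Adamts5* at Day 7 gave way to a shallow cluster. At Day 10 so did those of *Adamts1*, *Adamts9*, *Adamtsl1* and *Adamtsl3*. *Adamts18*, named above for osteoblast-like cells, is not among the 24 members and was not checked in this way. Among the compared clusters, a perichondrium-like cluster of Day 7 with 4992 and 4542 UMIs in the median cell had *Adamts6* itself among its 10 leading genes.

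Changes of the members within 1 class of cells were tested in chondrocyte-like cells, a class found at all 3 days, with 1341 and 1031 cells at Day 2, then 3259 and 2979 at Day 7, then 1749 and 1481 at Day 10. The class was cluster 5 at Day 2, clusters 1, 8 and 12 at Day 7 and clusters 0 and 10 at Day 10, so that different clusters make it up at each day and 12 is led by cell division genes. Left out at Day 10 were shallow clusters with *Wwp2* and *Sox6* among their 10 leading genes. The first of these was led by *Wwp2* (3.41% and 4.52% of cells) and the second by *Xist* and *Tsix* (3.13% and 4.65%). Hypertrophic chondrocyte-like cells (2.34% and 1.87%) were left out too. Of 36 members with enough UMIs, 32 differed between Day 2 and Day 7 (edgeR quasi-likelihood test on the class, 15718 genes), against 72.8% of all genes, with 15 higher and 17 lower, against 36.5% and 36.3%. With the cluster resolution halved, 18 were higher and 14 lower, and with it doubled, 15 of 35 were higher and 14 lower, so the balance of the directions turned with the resolution. ADAMTS proteases fell in 12 of 17 cases and rose in 4, TIMPs rose in 4 of 4, MMPs rose in 4 and fell in 4 of 10, and ADAMTSL proteins rose in 3 of 5. From Day 7 to Day 10, 14 members differed, against 40.1% of all genes, with 8 higher and 6 lower, against 20.5% and 19.6%. Day 10 against Day 2 gave 30, against 76.2%, with 15 higher and 15 lower, against 38.8% and 37.4%.

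Within the class, 3 of the 4 TIMPs were higher at Day 10 than at Day 2, against 38.8% of all genes. Levels in the class are given after TMM scaling of the class sums, so they are not on the scale of the cluster levels above. *Timp1* was at 22.7 and 23.6 CPM in chondrocyte-like cells at Day 2, then 158 and 159.7 at Day 7, then 285 and 319 at Day 10, each day above the one before. It rose by 3.71 ± 0.074 from Day 2 to Day 10 (edgeR adjusted p = 5.69e-16). *Timp3* was at 101 and 109.9, then 261 and 231, then 366 and 395, a rise of 1.85 ± 0.074 (edgeR adjusted p = 1.56e-12), and *Timp2* rose by 1.01 ± 0.060. From Day 7 to Day 10, *Timp2* measured 0.02 ± 0.058 (edgeR adjusted p = 0.849), and *Timp4* did not pass the test for Day 10 against Day 2 (0.39 ± 0.37, adjusted p = 0.346). Of the proteases, *Adamts1* went from 51.7 and 56.4 CPM to 27.0 and 22.5 and then 17.2 and 17.3, a fall of 1.65 over the period (SE 0.083, edgeR adjusted p = 2.79e-11). *Adamts5* fell by 0.79 (SE 0.15, edgeR adjusted p = 0.000127) in the class and measured 0.07 ± 0.070 in whole cultures. *Adamts15* and *Adamts19* fell by 3.58 (SE 0.40) and 4.40 (SE 0.22). *Adamts14* rose by 2.06 ± 0.14 and *Adamts12* by 1.28 ± 0.11.

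Some members moved one way in the class and the other way in the whole culture. *Mmp14* in chondrocyte-like cells was at 77.4 and 72.9 CPM at Day 2, then 55.4 and 53.3 at Day 7, then 58.2 and 58.3 at Day 10. Between Day 2 and Day 7 it fell there by 0.47 (SE 0.057, edgeR adjusted p = 1.62e-06), beside a rise of 0.32 ± 0.057 in the whole culture. *Adamts6* fell by 0.76 (SE 0.11) in the class, from 7.82 and 9.14 to 5.08 and 4.91 CPM, beside a rise of 0.29 ± 0.066. *Adamtsl1* fell by 0.29 (SE 0.095) beside a rise of 0.61 ± 0.048. From Day 7 to Day 10, *Adamts9* rose by 0.27 ± 0.080 in the class (edgeR adjusted p = 0.0121), beside a fall of 0.21 (SE 0.074) in the whole culture. That fall was not called under several alternatives given above. The whole-culture rises of *Mmp14* and *Adamts6* were not called with scaling by library totals, by the values above. *Mmp23* rose in both, by 0.70 ± 0.14 in the class and 2.26 ± 0.12 in the whole culture to Day 7. Changes in the class rest on TMM factors of 0.87 to 1.25, and scaling by library totals was not run there. How far the class changes depend on this scaling was not tested. The chondrocyte-like cells are part of the whole-culture sums, and the difference between the 2 fits was not tested.

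**Figure D5:**
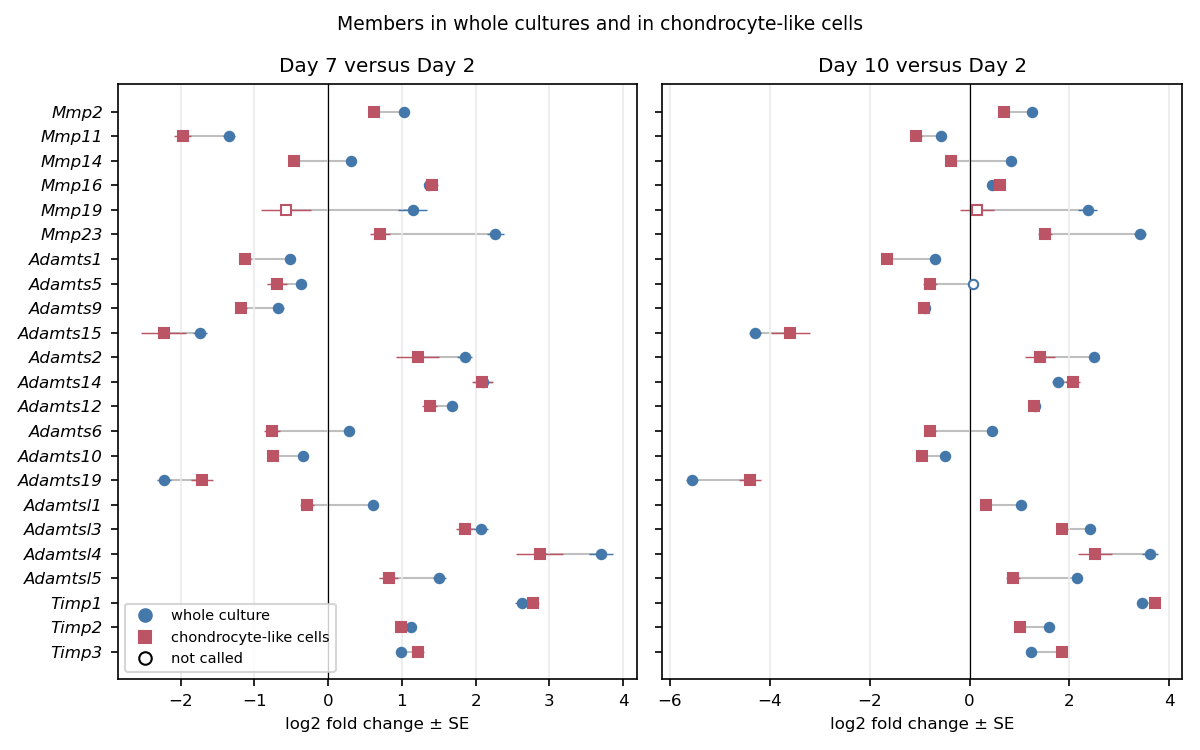
log2 fold change ± SE (x axis) of 23 members (y axis) in whole cultures (circles) and in chondrocyte-like cells (squares), for Day 7 versus Day 2 and Day 10 versus Day 2, with open symbols for values not called by edgeR. Both symbols of Timp1, Timp3 and Mmp16 lie to the right of 0, while those of Mmp14 and Adamts6 lie on opposite sides of 0.

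Genes that work with the members were counted from lists of partners and substrates, and their counts stand against 35.7% of all genes higher and 34.6% lower by Day 7, and 39.0% and 38.2% by Day 10. Of 14 matrix substrates, 12 rose and 1 fell between Day 2 and Day 7, and 12 rose and 2 fell by Day 10. Among them *Acan*, *Col2a1* and *Hapln1* are also on the chondrocyte marker list and *Prg4* on the articular list. *Col1a1*, *Col1a2*, *Col3a1*, *Fbn1*, *Fbn2* and *Dcn* are on the perichondrium list. The part of those cells in the substrate counts was not tested. Over the whole period *Comp*, a cartilage matrix protein, rose by 9.22 ± 0.14 on the log2 scale, *Prg4* (lubricin) by 5.08 ± 0.17 and *Hapln1*, the link protein of aggrecan, by 4.84 ± 0.15, while versican (*Vcan*) fell by 1.46 (SE 0.093). Of 9 other inhibitors and clearance genes, 7 rose and 0 fell by Day 7, 3 rose and 4 fell from Day 7 to Day 10 (against 26.3% and 25.9% of all genes), and 7 rose and 2 fell over the period. *A2m*, a broad protease trap, rose from 0.636 and 0.600 to 23.9 and 25.3 CPM and fell to 5.97 and 4.58 at Day 10, and *Serpinf1* rose by 2.77 and *Serpine2* by 1.43 over the period. All 6 cathepsins rose from Day 2 to Day 10, with *Ctsk* at 3.19, *Ctsd* at 2.36 and *Ctsz* at 1.85 on the log2 scale. *Ctsk* is itself on the osteoclast marker list, of which 5 of 5 tested genes rose over the same period, and all 8 osteoblast markers rose. The part of these cells, or of the immune cells above, in the change of the cathepsins was not tested. Of 12 related metalloproteases, 9 rose and 3 fell by Day 7 and 8 rose and 3 fell by Day 10, among them *Adam15* (2.50), *Adam12* (1.30) and *Bmp1* (1.04), while *Adam8*, at 5.88 and 6.16 CPM at Day 10, rose by 3.13. Of 7 proenzyme activators and convertases, 1 rose and 1 fell by Day 7, and 5 rose and 1 fell by Day 10, with *Plaur* at 0.98 and *Plat* at 0.84. Of 4 genes for glycosylation of thrombospondin repeats and relatives, 1 rose and 2 fell by Day 10, *Pofut2* by 0.72 and *Thsd4* by -1.18.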

How the data were processed

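Single-cell RNA sequencing counts of 6 limb bud cultures (3′ 10x chemistry) were analysed. The submitters' processing notes name Cell Ranger 6.1.2, STAR, the mouse build GRCm38 and Seurat 4.1.0; the authors deposited UMI counts per gene and barcode, not normalized. Cells were kept by the limits that the study's methods set for each library (at least 800 or 1000 UMIs, 200 to 7500 genes, at most 25% to 40% mitochondrial and 35% to 40% ribosomal UMIs), which left 9448 to 16486 cells, within 1 cell per library of the number the study states. Doublets were not called here.

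Counts were summed per library and tested with edgeR 4.0.16 (R 4.3.3; filterByExpr, TMM factors of 0.927 to 1.14, quasi-likelihood test, day as the only term, all 6 libraries in 1 fit) with Benjamini-Hochberg adjustment over 18987 genes. A member was called at an adjusted p under 0.05. The SE of a log2 fold change was derived as its absolute value divided by the square root of the F statistic of the test. The replicates were independent cultures per the study's methods, and p-values cover the spread between these cultures. Replicates of a day differed by more than sampling noise. The replicate letters did not pair the samples (correlations of deviations of -0.0094, -0.0767 and 0.0101). Scripts were tested on simulated data with known changes.

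Cells of each day were clustered in Seurat 5.3.0 (SCTransform, anchors over 3000 features without the members, 35 dimensions, resolution 0.5 at Day 2 and Day 7 and 0.7 at Day 10). A cluster took a name from at least 3 enriched markers, and the naming rule and the limits for compared clusters were settled with the clusters' leading genes in view. Names are rebuilt, not the study's. Values per library are given for the 24 members that reached a mean of 10 CPM at any day, or that changed by at least 2 on the log2 scale and reached 2 CPM, and other members with few words or by range. The members and the lists of related and marker genes were chosen with earlier results of these data known. The alternatives were other normalizations, no filter on low counts, DESeq2 1.42.0, other sets of cells, thinned cells, fewer libraries, the replicate letter as a block and other cluster resolutions. Gene positions come from the GENCODE annotation of GRCm38 and promoters from RefSeq (GRCm38.p6), which matched 34 of the 48 members.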

Additional observations from a re-analysis of the deposited data

How the results depend on the processing

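The counts of called members kept within 1.5 times of the main count under the alternatives run, apart from Day 10 versus Day 7 with cells thinned to 1000 UMIs, at 16 of 35 tested against 30 of 40. Shares of all genes called are given for the main fits only, so counts under an alternative cannot set the members apart from other genes. Over all alternatives the counts ran from 28 to 37 for Day 7 versus Day 2, 16 to 31 for Day 10 versus Day 7 and 28 to 36 for Day 10 versus Day 2. Leaving out each replicate in turn gave 34 to 36, 24 to 31 and 33 to 36 in whole cultures, and 28 to 32, 11 to 14 and 27 to 30 in chondrocyte-like cells. In chondrocyte-like cells, Day 10 versus Day 7 gave 20 members with the cluster resolution halved and 19 with it doubled, against 14. With the replicate block the counts were 37, 30 and 35, and 32, 14 and 30 in chondrocyte-like cells. Of the 24 members given per library, the block ended the call of *Adamts9* (adjusted p = 0.0515) and added *Adamts6* (adjusted p = 0.047), both in Day 10 versus Day 7, by edgeR.

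Scaling by library totals alone moved the median of all genes by -0.28 for Day 7 versus Day 2 and by -0.26 for Day 10 versus Day 2. It was run for whole cultures and not for chondrocyte-like cells. Under it *Adamts5* in Day 10 versus Day 2 turned from 0.07 to -0.19 (edgeR adjusted p = 0.0236), a value within that shift, and without Day 2 replicate A it was called in the other direction (0.18, adjusted p = 0.0275). Thinning ended 13 calls of those members, *Adamts9* and *Adamts10* in Day 10 versus Day 2 among them (-0.10 and -0.09, edgeR adjusted p = 0.487 and 0.599). Without thinning these 2 changes were -0.89 and -0.48, so their size shrank too. Thinned sums hold few UMIs of the low members, and what ended each call was not tested. With n = 2 per day, small steps such as those of *Mmp2*, *Adamts1* and *Timp3* after Day 7 lost their call when some single libraries were left out, though their direction held. Cluster names, shallow cells and doublets limit the account by cell class.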
